A study of Drosophila melanogaster with 12 samples.

Results

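The JAK-STAT pathway genes described here are 8 of the 13825 genes with a transcript in the deposited tables, namely the ligands unpaired 1 (upd1) and unpaired 3 (upd3), the receptor domeless (dome) and its short relative eye transformer (et), the Janus kinase hopscotch (hop), the transcription factor Stat92E, and the negative regulators Socs36E and Ptp61F. They were chosen by name as core components of the pathway, with earlier results of these data known. Their levels were read in larval salivary glands of 4 groups at 96 hr AED (after egg deposition), with 3 replicates each. Proximal parts (PP) were isolated from glands that carried both UAS-RasV12 and UAS-l(2)glRNAi (lglRNAi;RasV12). Entire glands were taken from lglRNAi;RasV12-larvae, from larvae with UAS-RasV12 alone (RasV12), and from controls of a cross to w1118. RasV12 is a constitutively active form of the small GTPase Ras85D, and l(2)gl encodes a regulator of cell polarity. Per the labels, the mothers of all 4 groups carried w1118, the BxGal4 driver and a Drs-GFP reporter, and all larvae were fed antibiotics. The study's list of crosses, however, names Drs-GFP for this experiment only in the cross with the l(2)gl RNAi, and if so, the reporter and the RNAi cannot be told apart in lglRNAi;RasV12- against RasV12-glands. BxGal4 is active in the salivary gland but not only there, so other tissues of the larvae may have carried the transgenes too. Each library pooled the glands of many larvae. The sample labels call the isolated piece a posterior part, whereas the study's own text calls it the proximal part, and the name PP is used here. Entire lglRNAi;RasV12-glands include their PP, so these groups differ in tissue makeup and not in genotype.

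In flies, the secreted Unpaired cytokines bind the receptor Domeless, which activates the kinase Hopscotch. Hopscotch phosphorylates Stat92E, which then enters the nucleus and binds DNA. Transcripts of Socs36E are a widely used readout of the pathway, because Stat92E activates this gene and its product dampens the signal in turn. Ptp61F encodes a tyrosine phosphatase that also limits it, and et encodes a receptor-like protein that lacks Domeless's signaling region and has been described as an inhibitor. In wounded or tumorous fly tissue, upd3 is known as a cytokine induced by JNK and its AP-1 transcription factors.

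Estimated counts per library summed to between 29532039 and 73043536 in the PP, between 30516609 and 48540724 in lglRNAi;RasV12-glands, between 33240912 and 36122132 in RasV12-glands, and between 27584224 and 35658020 in w1118-glands. The floor used here, 3 counts, was worth 0.0411 to 0.109 counts per 1000000 (CPM), depending on the library, and this limit is one of counting error alone. The 20 most abundant genes took between 19.3% and 24.1% of the counts in the 9 libraries with RasV12, against 39.8% to 47.3% in w1118-glands. CPM were therefore scaled by TMM, which assumes that most genes do not differ, and results that depend on this scaling are named below. Ras85D, whose transgene adds to its counts, was between 2042 and 3454 CPM in the groups with RasV12, against 54.3 to 75.1 CPM in w1118-glands. The RNAi target l(2)gl was at lower levels in lglRNAi;RasV12-glands than in RasV12-glands (log2 fold change -0.66, SE 0.14, adjusted p = 0.0132), but not lower than in w1118-glands (0.05, SE 0.14, adjusted p = 0.81), and it was higher in the PP than in w1118-glands (0.59, SE 0.14, adjusted p = 0.00399). The PP, at 207.5 to 281.5 CPM, lay above whole lglRNAi;RasV12-glands (148 to 191 CPM) in l(2)gl. It overlapped with RasV12-glands (244 to 286 CPM) without a call, so no reduction of l(2)gl was detected in the PP. All 9 markers of the secretory gland cells, glue genes among them, were above the floor in every group, but their sum was 43084 to 50459 CPM in the PP, 88094 to 101779 CPM in whole lglRNAi;RasV12-glands and 80940 to 99498 CPM in RasV12-glands, against 271754 to 434022 CPM in w1118-glands. Of the 9, 8 were lower than in w1118-glands in the PP, 7 in lglRNAi;RasV12-glands and 8 in RasV12-glands. Of all genes, 25.2%, 23.5% and 23.1% were lower in these comparisons. Summed hemocyte markers were between 41.6 and 74.1 CPM in the PP, 26.6 and 74.1 CPM in whole lglRNAi;RasV12-glands, 25.7 and 30.8 CPM in RasV12-glands, and 51.4 and 80 CPM in w1118-glands. Of these markers, NimC4 was at or under the floor in every library. The deposited tables also carry a number of unstated meaning that splits the libraries into 4 sets. All lglRNAi;RasV12-libraries share theirs with RasV12 replicate 1 only, and all w1118-libraries share theirs with the other RasV12-replicates and PP replicate 1. With this number in the model, lglRNAi;RasV12-glands and w1118-glands are linked through the RasV12-replicates alone, and PP replicates 2 and 3, with a number each of their own, no longer add to the level of the PP.

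The 8 genes lie on 4 chromosome arms. Coordinates are those of dm6. upd3 spans positions 18277233 to 18284596 of chromosome X on the plus strand, and upd1 lies 20757 bases further on, at 18305354 to 18309291 on the minus strand. A gene for another Unpaired ligand in the same cluster, upd2, could not be read, as its 1 annotated transcript had no match in the deposited tables. On the same chromosome, dome (19676061 to 19683518) and et (19672312 to 19675891) follow each other on the minus strand with 169 bases between them, and hop spans 11360930 to 11368098, also on the minus strand. Stat92E spans 20535323 to 20552311 of 3R, Socs36E 18138675 to 18152417 of 2L and Ptp61F 1342493 to 1475257 of 3L, each on the minus strand. The kit did not mark strand, and an exon of et overlaps Zw on the opposite strand by 42 bases, so that reads in this stretch cannot be assigned.

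Compared per transcript length, in transcripts per 1000000 (TPM), dome had the highest mean level of the 8 genes in the PP (61.1 ± 15.5, SD, n = 3), in lglRNAi;RasV12-glands (52.2 ± 10.1) and in RasV12-glands (47.8 ± 8.66), although its libraries overlapped with those of Stat92E (42.3 ± 0.923) in lglRNAi;RasV12-glands. In w1118-glands Stat92E was the highest, at 21.6 ± 1.77 TPM, and no library of dome, hop or Ptp61F in this group reached it. In the PP, Stat92E (43.2 ± 4.07 TPM), Socs36E (36.7 ± 12.5 TPM) and Ptp61F (27.8 ± 3.11 TPM) followed dome, and the libraries of Socs36E overlapped with those of both its neighbours in this order. Ptp61F (32.8 ± 6.03 TPM) came before Socs36E (20.9 ± 6.99 TPM) and hop (19.3 ± 0.636 TPM) in lglRNAi;RasV12-glands, and the libraries did not separate Socs36E from hop. In RasV12-glands, Socs36E (11.6 ± 4.24 TPM) was below hop (16.0 ± 1.65 TPM) on average, again with overlap. In w1118-glands, dome (14.9 ± 3.89 TPM), hop (14.8 ± 0.215 TPM) and Ptp61F (11.9 ± 0.128 TPM) overlapped through the spread of dome, and Socs36E was clearly lower, at 4.24 ± 0.800 TPM. The ligand upd3 was below these 5 genes in every group, at 7.54 ± 1.63 TPM in the PP, 7.98 ± 2.25 TPM in lglRNAi;RasV12-glands and 5.74 ± 1.58 TPM in RasV12-glands, against 0.0344 ± 0.0498 TPM in w1118-glands. The lowest levels were those of et, at 0.639 ± 0.100, 1.61 ± 0.254, 0.704 ± 0.143 and 1.20 ± 0.463 TPM in the PP, lglRNAi;RasV12-, RasV12- and w1118-glands, and of upd1, at no more than 0.101 TPM in any library. In w1118-glands, et was above upd3.

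**Figure D1:**
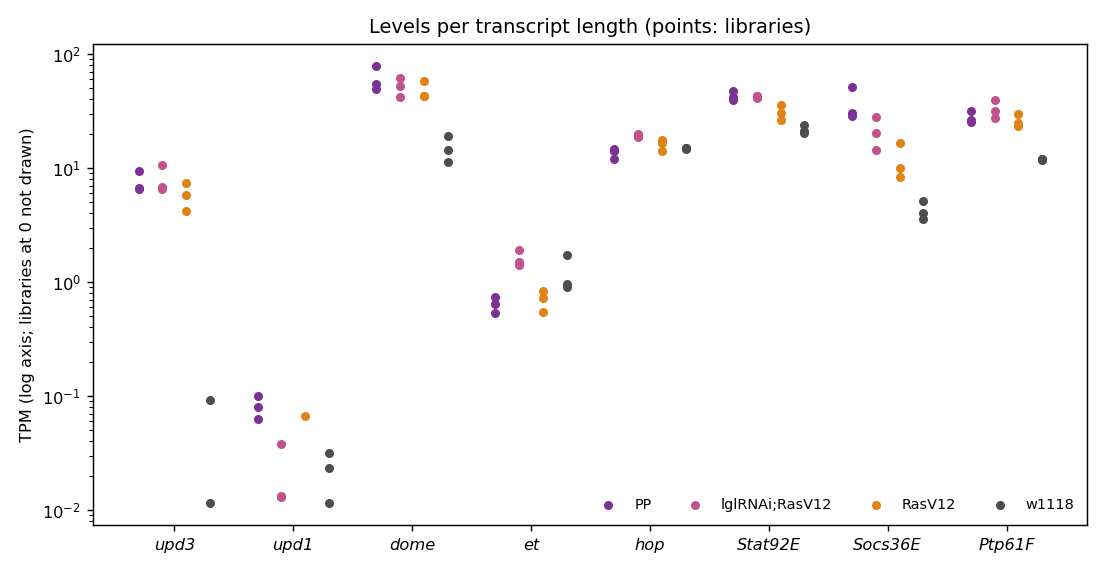
TPM on a log axis for the 8 genes, with 1 point per library and the groups in the order PP, lglRNAi;RasV12, RasV12 and w1118 within each gene; libraries at 0 are not drawn. Levels span from 0.101 TPM or less for upd1 to between 11.2 and 78.7 TPM for dome, and upd3 is the gene with the widest gap between the groups with RasV12 and w1118-glands.

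The ligand upd3 was nearly undetected in control glands and rose in every group with RasV12. It had 14.0, 22.2 and 14.3 CPM in the PP, 19.5, 12.7 and 13.3 CPM in whole lglRNAi;RasV12-glands, and 14.4, 12.1 and 8.21 CPM in RasV12-glands, against 0.336, 0.0340 and 0 CPM in w1118-glands. The 3 control values rested on 7, 1 and 0 counts, whereas each of the 9 libraries with RasV12 had between 300 and 1672 counts, so the groups did not overlap. Against w1118-glands the log2 fold change was 7.22 in the PP (SE 0.55, adjusted p = 7.97e-07), 7.07 in lglRNAi;RasV12-glands (SE 0.55, adjusted p = 1.41e-06) and 6.67 in RasV12-glands (SE 0.56, adjusted p = 2.8e-06). As ratios of summed counts scaled for depth, these differences were 168-fold (95% interval 85.0 to 389), 145-fold (73.3 to 336) and 106-fold (53.8 to 247), and the intervals cover counting error only. Among the 9012 genes tested, upd3 ranked 22, 10 and 16 by log2 fold change in these comparisons, which share the w1118-libraries. It passed the filter on low counts only through the groups with RasV12. A gene that does so tends to rank high against w1118-glands, so its ranks and adjusted p are given as a description.

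Among the groups with RasV12 no difference in upd3 passed the test. The log2 fold change was 0.15 for the PP against lglRNAi;RasV12-glands (95% interval -0.53 to 0.83, adjusted p = 0.737), 0.54 for the PP against RasV12-glands (-0.14 to 1.23, adjusted p = 0.194) and 0.40 for lglRNAi;RasV12- against RasV12-glands (-0.29 to 1.08, adjusted p = 0.445). PP replicate 2, the deepest library, had the highest upd3 of all 12 in CPM, whereas in TPM lglRNAi;RasV12 replicate 1 did (10.6, against 9.41 in PP replicate 2). Without PP replicate 2 the first of these values turned to -0.10 (adjusted p = 0.849).

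Blood cells can also produce upd3, and their markers were read beside it. RasV12-glands had the lowest summed hemocyte markers of the 4 groups, below every w1118-library, while their upd3 was above every w1118-library. Which cells the upd3 transcripts came from was not tested. Of 9 hemocyte markers tested, none was higher in RasV12- or lglRNAi;RasV12-glands than in w1118-glands, and 3 and 2 of them were lower. Of all genes, 25.8% and 28.2% were higher and 23.1% and 23.5% lower in these comparisons. In the PP, 1 of the 9 was higher than in w1118-glands, Hml, which encodes a hemocyte adhesion protein (log2 fold change 1.24, SE 0.47, adjusted p = 0.040), and 1 was lower, srp (-2.09, SE 0.32, adjusted p = 1.7e-04). The sums and calls of these markers rest on TMM, and they were not fitted under other scalings. Mean TPM of Hml was 0.510 in RasV12- and 1.25 in lglRNAi;RasV12-glands, above the 0.467 of w1118-glands. That of another marker, Sr-CI, was lower in both (0.511 and 0.865, against 1.34).

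Beside the ligands, 4 AP-1 pathway genes were read, and each exceeded its w1118-level at least 2-fold in every group with RasV12. Of all genes, 33.5% were called higher against w1118-glands in the PP, 28.2% in lglRNAi;RasV12-glands and 25.8% in RasV12-glands. Ets21C, an ETS transcription factor that acts with AP-1, had 26.4, 60.2 and 22.4 CPM in the PP, 44.6, 11.2 and 25.7 CPM in whole lglRNAi;RasV12-glands and 48.2, 20.1 and 17.6 CPM in RasV12-glands, against 1.10, 0.578 and 1.13 CPM in w1118-glands. puc, the phosphatase that feeds back on JNK, had a log2 fold change against w1118-glands of 1.12 in the PP (SE 0.19), 2.11 in lglRNAi;RasV12-glands (SE 0.20) and 1.81 in RasV12-glands (SE 0.20). Jra, the fly Jun, had 1.16, 1.21 and 1.19 in the same order (SE 0.18 each), and kay, the fly Fos, had 1.49, 2.07 and 1.55 (SE 0.26 each). puc was lower in the PP than in whole lglRNAi;RasV12-glands (-0.99, SE 0.19, adjusted p = 0.00224), a comparison without a call for upd3. Whether these AP-1 pathway genes acted on upd3 was not tested.

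The other ligand, upd1, the main embryonic and imaginal disc Unpaired, was at the limit of detection. It had 5, 17 and 9 counts in the PP, 4, 1 and 1 counts in lglRNAi;RasV12-glands and 0, 6 and 0 counts in RasV12-glands, against 2, 3 and 1 counts in w1118-glands. The PP-libraries were above the floor, at 0.150, 0.225 and 0.252 CPM, and the w1118-libraries were at or under it. The ratio of the summed counts, scaled for depth, was 2.62 for the PP against w1118-glands (95% interval 1.08 to 7.67, counting error only) and 4.26 for the PP against lglRNAi;RasV12-glands (1.75 to 12.5). upd1 did not pass the filter on low counts. In a fit without that filter it was not called in either of these comparisons (log2 fold change 1.36, SE 1.04, adjusted p = 0.337, and 2.07, SE 1.03, adjusted p = 0.174).

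**Figure D2:**
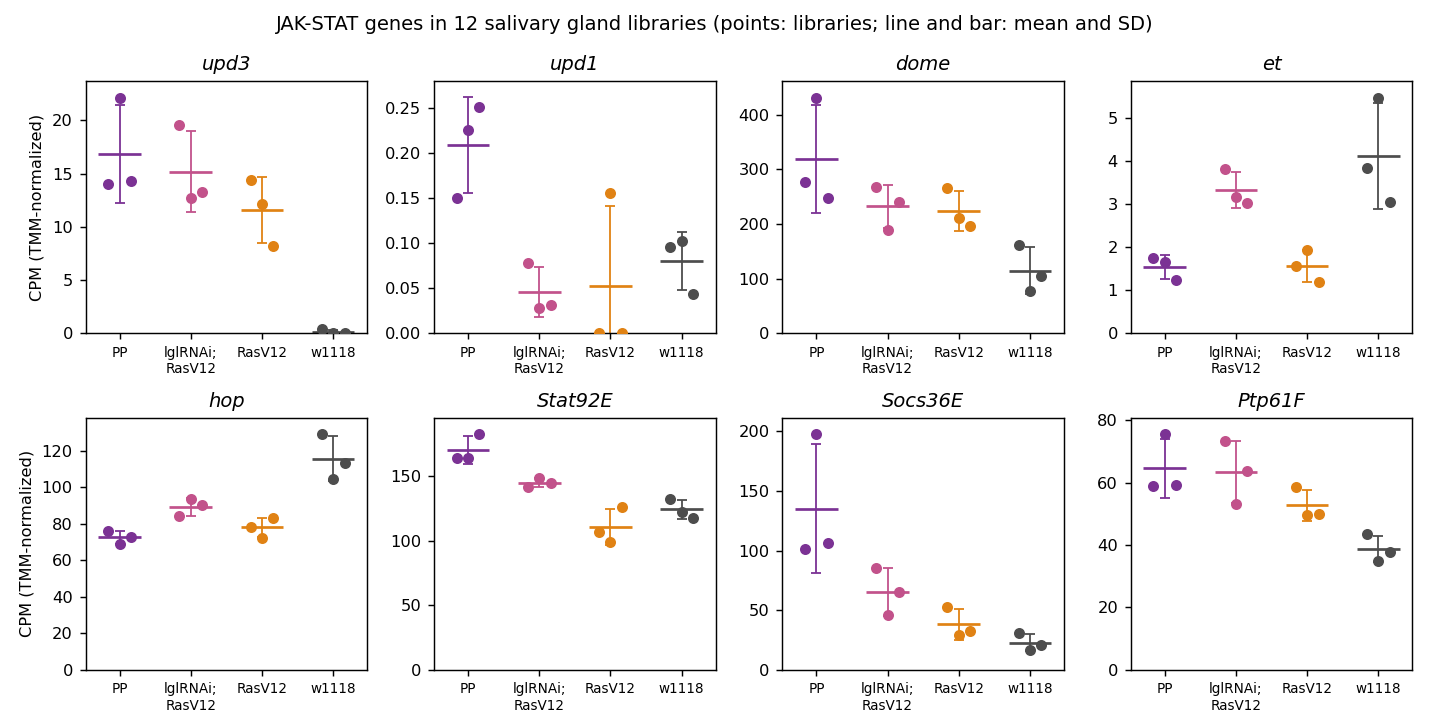
TMM-normalized CPM of each of the 8 genes on a linear axis from 0, with 1 point per library, a line at the mean and a bar of 1 SD (n = 3), for the PP, lglRNAi;RasV12-, RasV12- and w1118-glands from left to right. upd3 sits between 8.21 and 22.2 CPM in the groups with RasV12 and at 0.336 CPM or less in w1118-glands, while hop and et are highest in w1118-glands, with overlap for et.

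The receptor gene dome was higher than in w1118-glands in each group with RasV12, by 2.79-fold in the PP, 2.03-fold in lglRNAi;RasV12-glands and 1.96-fold in RasV12-glands. It had 277, 432 and 248 CPM in the PP, 267, 188.5 and 241 CPM in whole lglRNAi;RasV12-glands and 265, 211 and 196 CPM in RasV12-glands, against 162, 76.2 and 105 CPM in w1118-glands. Each library with RasV12 was above every control, and the PP overlapped with both other groups. These sizes depend on the scaling, and log2(TPM + 1) gave log2 fold changes of 1.97, 1.75 and 1.63. With TMM, the log2 fold change was 1.48 in the PP (SE 0.28, adjusted p = 6.8e-04), 1.02 in lglRNAi;RasV12-glands (SE 0.27, adjusted p = 0.00823) and 0.97 in RasV12-glands (SE 0.27, adjusted p = 0.0114). Without RasV12 replicate 1 the last of these narrowly missed the threshold (0.83, adjusted p = 0.0506), and with the deposited number in the model the value for lglRNAi;RasV12-glands was 0.64 (adjusted p = 0.391). No difference in dome among the groups with RasV12 passed the test. The intervals of the log2 fold change were -0.13 to 1.05 for the PP against lglRNAi;RasV12-glands, -0.08 to 1.10 for the PP against RasV12-glands and -0.54 to 0.64 for lglRNAi;RasV12- against RasV12-glands.

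et, directly downstream of dome on the same strand, went the other way and separated the groups differently. It had 1.74, 1.64 and 1.23 CPM in the PP, 3.80, 3.16 and 3.02 CPM in whole lglRNAi;RasV12-glands and 1.55, 1.92 and 1.18 CPM in RasV12-glands, against 3.84, 5.47 and 3.05 CPM in w1118-glands, from between 43 and 195 counts a library. The PP and RasV12-glands were below all other libraries, while lglRNAi;RasV12-glands overlapped with w1118-glands. Against w1118-glands et fell by 1.42 (log2) in the PP (SE 0.26, adjusted p = 6.0e-04) and by 1.41 in RasV12-glands (SE 0.26, adjusted p = 8.6e-04). In lglRNAi;RasV12-glands the value was -0.31 (SE 0.25, adjusted p = 0.327), and its sign turned with the scaling, to 0.10 by library size. With the deposited number in the model the value for the PP was -1.25 and just missed the threshold (adjusted p = 0.0502). The sizes of these falls depend on the processing. In TPM, et was 0.639 ± 0.100 in the PP and 0.704 ± 0.143 in RasV12-glands, against 1.20 ± 0.463 in w1118-glands, each under 2-fold. Over 16 alternatives the log2 fold change kept its sign, from -1.6 to -0.406 in the PP and from -1.59 to -0.351 in RasV12-glands.

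Between the groups with RasV12, et was higher in lglRNAi;RasV12- than in RasV12-glands (log2 fold change 1.10, SE 0.26, adjusted p = 0.0190) and lower in the PP than in whole lglRNAi;RasV12-glands (-1.11, SE 0.26, adjusted p = 0.00601), and its value in the PP against RasV12-glands was -0.01 (95% interval -0.58 to 0.57). The call against RasV12-glands was narrow. It was lost without lglRNAi;RasV12 replicate 1 (adjusted p = 0.0555) or 2 (0.0505) and without RasV12 replicate 1 (0.0543) or 3 (0.0746), and with the deposited number in the model neither call held (1.11, adjusted p = 0.312, and -0.94, adjusted p = 0.573).

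The kinase gene hop was lower relative to other genes in each group with RasV12. It had 76.0, 69.0 and 72.9 CPM in the PP, 84.2, 93.6 and 90.1 CPM in whole lglRNAi;RasV12-glands and 78.2, 72.5 and 83.4 CPM in RasV12-glands, against 129, 104.5 and 114 CPM in w1118-glands. All 3 controls were above all other libraries. Against w1118-glands hop fell by 0.67 (log2) in the PP (SE 0.09, adjusted p = 7.3e-05), by 0.37 in lglRNAi;RasV12-glands (SE 0.09, adjusted p = 0.00528) and by 0.57 in RasV12-glands (SE 0.09, adjusted p = 3.6e-04). With the deposited number in the model the second of these was no longer called (-0.38, adjusted p = 0.208). The directions rest on the scaling. In TPM, which are not scaled for composition, hop was 13.6 ± 1.28 in the PP, 19.3 ± 0.636 in lglRNAi;RasV12-glands and 16.0 ± 1.65 in RasV12-glands, against 14.8 ± 0.215 in w1118-glands, and a fit of log2(TPM + 1) gave -0.13 (adjusted p = 0.27), 0.36 (adjusted p = 0.00675) and 0.10 (adjusted p = 0.386). Scaled by library size alone, the values were -0.20 (adjusted p = 0.091), 0.04 (adjusted p = 0.731) and -0.13 (adjusted p = 0.258). That scaling moved the median log2 fold change of all genes against w1118-glands by between 0.409 and 0.465. Within the lglRNAi;RasV12 genotype, hop was lower in the PP than in entire glands (-0.30, SE 0.09, adjusted p = 0.0254). This call was lost by library size (adjusted p = 0.0774), without PP replicate 2 (adjusted p = 0.0921) or 3 (0.0652), without lglRNAi;RasV12 replicate 2 (0.0944) or 3 (0.0793), and with the deposited number in the model (0.73).

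Stat92E, the transcription factor, was highest in the PP in TMM-normalized CPM. It had 164, 164 and 183 CPM in the PP, 142, 149 and 145 CPM in whole lglRNAi;RasV12-glands and 107, 98.8 and 126 CPM in RasV12-glands, against 133, 122.5 and 118 CPM in w1118-glands. The PP-libraries were above all others, lglRNAi;RasV12-glands came next without overlap, and RasV12-glands overlapped with the controls. In TPM the PP (42.3, 39.7 and 47.7) overlapped with lglRNAi;RasV12-glands (42.9, 42.7 and 41.2). In the PP it was higher than in w1118-glands (log2 fold change 0.45, SE 0.10, adjusted p = 0.00169) and higher than in RasV12-glands (0.62, SE 0.10, adjusted p = 5.4e-04). Against entire lglRNAi;RasV12-glands the value was 0.23 (95% interval 0.02 to 0.44, adjusted p = 0.079), and 0.03 in log2(TPM + 1) (adjusted p = 0.871). lglRNAi;RasV12-glands were above RasV12-glands (0.39, SE 0.10, adjusted p = 0.0244), a call that was lost without lglRNAi;RasV12 replicate 2 (adjusted p = 0.0854) or 3 (0.08), without RasV12 replicate 1 (0.0786) or 2 (0.103), by library size (0.0556), with only these groups in the fit (0.0535), and with the deposited number in the model (0.259).

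Against w1118-glands the whole glands gave no call for Stat92E. The values were 0.22 in lglRNAi;RasV12-glands (SE 0.10, adjusted p = 0.0741) and -0.17 in RasV12-glands (SE 0.10, adjusted p = 0.175). The value in lglRNAi;RasV12-glands was called by library size (0.64, adjusted p = 3.3e-04) and in log2(TPM + 1) (0.94, adjusted p = 1.7e-05). The negative sign in RasV12-glands turned by library size (0.27, adjusted p = 0.0532) and in log2(TPM + 1) (0.49, adjusted p = 0.0024), since TPM were 30.9 ± 4.52 in RasV12-glands against 21.6 ± 1.77 in w1118-glands, whereas without RasV12 replicate 3 it was called (-0.28, adjusted p = 0.0319). With the deposited number in the model the adjusted p was 0.0577 for the PP against w1118-glands and 0.0626 for the PP against RasV12-glands.

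Stat92E has 11 annotated transcripts, which fall into 2 sets by the start of their coding sequence. In 6 of them translation is annotated to begin at position 20541804 (754 to 818 codons), and in the other 5 at 20541300, further along the gene (628 to 679 codons), so that the shorter products lack the first part of the protein. The set with the later start took 60.3%, 68.2% and 70.2% of the gene's TPM in the PP, 46.8%, 47.4% and 47.3% in whole lglRNAi;RasV12-glands and 55.9%, 49.4% and 48.3% in RasV12-glands, against 42.9%, 53.1% and 52.8% in w1118-glands. The PP-libraries were thus above all 9 others. In TPM, the later start had 28.7 ± 4.23 in the PP and 19.9 ± 0.393 in entire lglRNAi;RasV12-glands (SD, n = 3 each), while the earlier start had 14.5 ± 2.12 and 22.4 ± 0.560. The transcript Stat92E-RI, of the set with the later start, had 20.7 ± 1.22% of the gene's TPM in the PP, 11.3 ± 1.85% in lglRNAi;RasV12-glands, 11.8 ± 2.30% in RasV12-glands and 10.5 ± 0.415% in w1118-glands. The coding sequence of Stat92E-RI also has another annotated end, at 20538532, than that of Stat92E-RM, at 20537412. Stat92E-RM, of the other set, had 7.56 ± 0.684% in the PP, 23.4 ± 3.51% in lglRNAi;RasV12-glands, 16.0 ± 0.780% in RasV12-glands and 21.0 ± 5.53% in w1118-glands. These shares are kallisto's division of reads among overlapping transcripts and are given as a description, with no test.

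**Figure D3:**
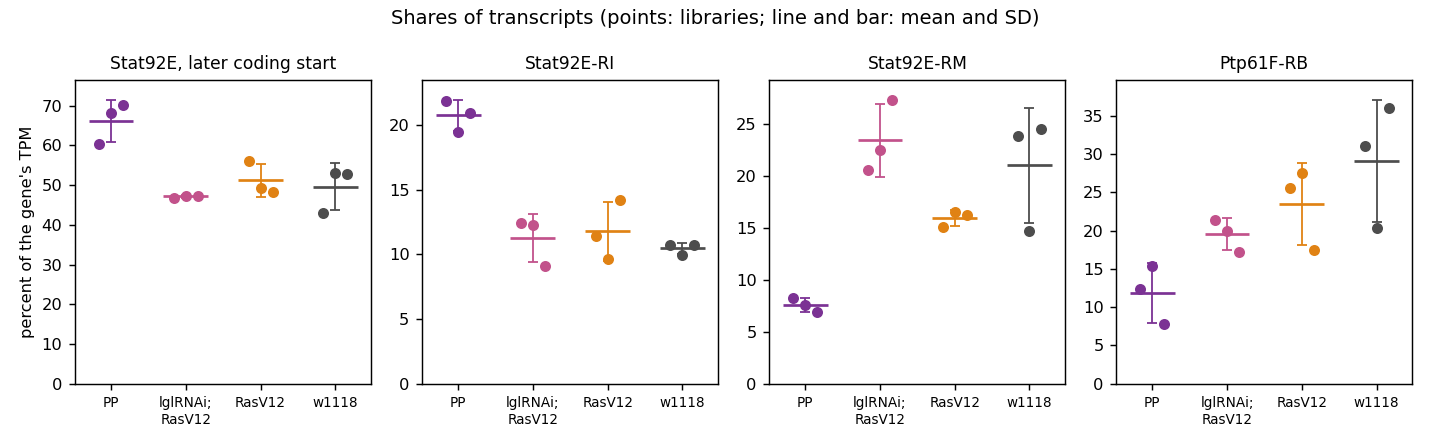
Percent of the gene's TPM for the 5 Stat92E transcripts with the later coding start together, for Stat92E-RI, for Stat92E-RM and for Ptp61F-RB, with 1 point per library, a line at the mean and a bar of 1 SD (n = 3); axes start at 0. The PP-libraries hold the highest shares of the later start, between 60.3% and 70.2%, and the lowest shares of Stat92E-RM, between 6.88% and 8.24%, of all 12 libraries.

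Socs36E, the readout and feedback inhibitor of the pathway, was highest in the PP. It had 101, 198 and 107 CPM in the PP, 85.8, 45.6 and 64.9 CPM in whole lglRNAi;RasV12-glands and 53.0, 29.0 and 32.3 CPM in RasV12-glands, against 30.7, 17.0 and 20.8 CPM in w1118-glands. The PP-libraries lay above all others, lglRNAi;RasV12-glands lay above the controls, and RasV12-glands overlapped with both of their neighbours. Against w1118-glands the log2 fold change was 2.57 in the PP (SE 0.35, adjusted p = 6.8e-05), 1.52 in lglRNAi;RasV12-glands (SE 0.34, adjusted p = 0.00294) and 0.74 in RasV12-glands (SE 0.34, adjusted p = 0.0898). The last of these was called without w1118 replicate 1 (1.01, adjusted p = 0.0491), by library size (1.18, adjusted p = 0.00536) and in log2(TPM + 1) (1.22, adjusted p = 0.00299). With the deposited number in the model, the value for lglRNAi;RasV12-glands was 0.73 (adjusted p = 0.344).

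The PP was above entire lglRNAi;RasV12-glands (log2 fold change 1.05, SE 0.33, adjusted p = 0.0275) and above RasV12-glands (1.83, SE 0.34, adjusted p = 0.00156) in Socs36E, and lglRNAi;RasV12- against RasV12-glands gave 0.78 (95% interval 0.05 to 1.51, adjusted p = 0.146). PP replicate 2 had nearly 2-fold the level of the other PP-replicates. Without it the difference to entire lglRNAi;RasV12-glands was 0.68 and no longer called (adjusted p = 0.127). The same call was lost without lglRNAi;RasV12 replicate 2 (adjusted p = 0.0969) or 3 (0.0735), in log2(TPM + 1) (0.0507) and log2(TPM + 0.1) (0.0528), and with the deposited number in the model (0.284). The difference to RasV12-glands held in all 16 alternatives, with adjusted p of at most 0.0244.

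The PP also differed from both groups of entire glands in markers of secretory and of other cells. Of the 9 secretory markers, 7 were lower in the PP than in lglRNAi;RasV12-glands and 8 were lower than in RasV12-glands. Of 4 duct and tracheal markers tested, 3 were higher in the PP than in lglRNAi;RasV12-glands and 3 were higher than in RasV12-glands, and their sum was between 83.8 and 94.0 CPM in the PP, 39.3 and 48.0 CPM in whole lglRNAi;RasV12-glands and 39.0 and 46.9 CPM in RasV12-glands, against 57.4 to 84.1 CPM in w1118-glands. Of 9 hemocyte markers, 5 were higher and 1 lower in the PP than in RasV12-glands, and none was higher and 1 lower than in lglRNAi;RasV12-glands. Among 6 fat body markers, 5 were lower in the PP in each of these comparisons, and all 6 were lower than in w1118-glands in each group with RasV12. The part of these markers' cells in the values of et, Stat92E, Socs36E and the other genes read here was not tested. In pooled tissue, fewer cells of a type cannot be told apart from less RNA per cell.

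Ptp61F, the tyrosine phosphatase, was moderately higher in every group with RasV12. It had 59.0, 75.5 and 59.1 CPM in the PP, 73.2, 53.2 and 63.7 CPM in whole lglRNAi;RasV12-glands and 58.5, 49.7 and 49.8 CPM in RasV12-glands, against 43.4, 35.0 and 37.8 CPM in w1118-glands. No library with RasV12 reached down to the controls. The log2 fold change was 0.74 in the PP (SE 0.14, adjusted p = 7.8e-04), 0.71 in lglRNAi;RasV12-glands (SE 0.14, adjusted p = 0.00127) and 0.45 in RasV12-glands (SE 0.14, adjusted p = 0.0204), each under 2-fold with TMM. In log2(TPM + 1) the values were 1.15, 1.37 and 1.06, all past 2-fold. The call in RasV12-glands was lost without RasV12 replicate 1 (adjusted p = 0.088), without w1118 replicate 2 (0.0818) or 3 (0.0613), and with the deposited number in the model (0.0768), which also ended the call in lglRNAi;RasV12-glands (0.48, adjusted p = 0.211). Among the groups with RasV12, the intervals of the log2 fold change were -0.28 to 0.33 for the PP against lglRNAi;RasV12-glands, -0.01 to 0.60 for the PP against RasV12-glands (adjusted p = 0.117, and called by library size at 0.0466) and -0.04 to 0.57 for lglRNAi;RasV12- against RasV12-glands.

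The shares of the Ptp61F transcripts also differed between groups. Ptp61F-RA, which had the largest share in every group, took 63.7 ± 2.63% of the gene's TPM in the PP, 65.4 ± 1.51% in lglRNAi;RasV12-glands and 59.9 ± 5.47% in RasV12-glands, against 54.2 ± 8.56% in w1118-glands. Ptp61F-RB took 12.4%, 15.4% and 7.75% in the PP, below all 9 other libraries, which had between 17.3% and 36.0%. RA and RB share their first position and end at different coding ends, of 548 and 535 codons. As no test was made, this is a description. Of the remaining members, upd3, dome and hop have 1 annotated transcript each, and the counts of Socs36E were divided nearly evenly between Socs36E-RA and Socs36E-RD, of equal length, so no difference between these was read.

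**Figure D4:**
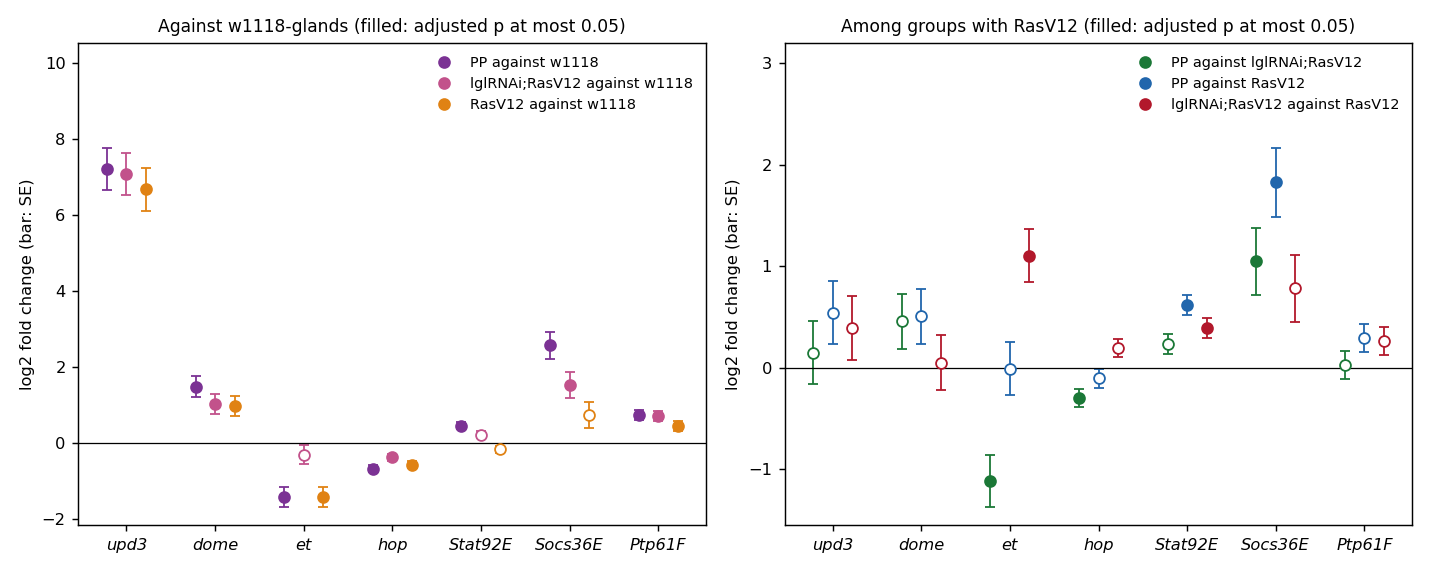
Log2 fold change of the 7 genes tested, with a bar of 1 SE, against w1118-glands on the left and among the groups with RasV12 on the right; filled points have an adjusted p of at most 0.05. upd3 is far above the others on the left, at 6.67 to 7.22, and has no filled point on the right, whereas Socs36E has filled points in both comparisons of the PP on the right.

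Counted over the 7 genes tested, all 7 were called in the PP against w1118-glands, 5 higher (upd3, dome, Stat92E, Socs36E and Ptp61F) and 2 lower (et and hop), where 58.6% of all genes were called, 33.5% higher and 25.2% lower. In lglRNAi;RasV12-glands against w1118-glands, 5 were called, 4 higher (upd3, dome, Socs36E and Ptp61F) and 1 lower (hop), where 51.7% of all genes were called, 28.2% higher and 23.5% lower. In RasV12-glands against w1118-glands, 5 were called, 3 higher (upd3, dome and Ptp61F) and 2 lower (et and hop), where 48.9% of all genes were called, 25.8% higher and 23.1% lower. With so many genes called in these comparisons, the number of members called is not a result about the pathway. The replicates of 64.4%, 58.9% and 57.3% of all genes did not overlap between the groups in these comparisons. Among the groups with RasV12, fewer were called. The PP against entire lglRNAi;RasV12-glands gave 3, Socs36E higher and et and hop lower, where 37.8% of all genes were called, 20% higher and 17.8% lower. The PP against RasV12-glands gave Stat92E and Socs36E, 2 genes, both higher, where the share of all genes was 37.5%, with 20.4% higher and 17.1% lower. lglRNAi;RasV12- against RasV12-glands gave et and Stat92E, also 2 and both higher, where it was 12.3%, with 7.18% higher and 5.1% lower. All replicates of 51.6%, 52.4% and 36.7% of genes were without overlap in these 3 comparisons.

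Other regulators of the pathway were read from a list of 19 genes without the members, of which 16 were in the tables and all 16 were tested. Against w1118-glands, 7 were higher and 3 lower in the PP, 6 higher with 3 lower in lglRNAi;RasV12-glands, and 4 each way in RasV12-glands. These counts rest on TMM, and the lists were not fitted under other scalings. For comparison, 33.5%, 28.2% and 25.8% of all genes were called higher, taken in the same order, with 25.2%, 23.5% and 23.1% lower. Whether the list departs from these shares was not tested. The median log2 fold change of the list was 0.25, 0.07 and -0.01 in these groups, where that of all genes was 0.10, 0.02 and -0.0010. The genes past 2-fold were apt, which encodes a feedback repressor of the pathway in border cells, Hrs and Stam, which sort receptors for degradation, and Socs44A, a relative of Socs36E. apt had 5.12, 9.67 and 5.17 CPM in the PP, 8.25, 4.89 and 4.48 CPM in whole lglRNAi;RasV12-glands and 9.12, 7.60 and 4.43 CPM in RasV12-glands, against 1.58, 1.67 and 1.18 CPM in w1118-glands. Its log2 fold change was 2.18 (SE 0.37), 1.99 (SE 0.37) and 2.25 (SE 0.37), without a call among the groups with RasV12. Hrs had 1.15 (SE 0.16) in the PP, 1.53 (SE 0.16) in lglRNAi;RasV12-glands and 1.40 (SE 0.16) in RasV12-glands, and Stam had 0.82, 1.08 and 1.25 (SE 0.13 each).

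Socs44A followed another order than Socs36E. It had 49.1, 56.0 and 43.1 CPM in the PP, 85.0, 73.9 and 72.9 CPM in whole lglRNAi;RasV12-glands and 73.1, 68.7 and 59.1 CPM in RasV12-glands, against 29.9, 30.9 and 35.6 CPM in w1118-glands. The PP was lower than the whole glands of lglRNAi;RasV12 (log2 fold change -0.65, SE 0.12, adjusted p = 0.00153) and than RasV12-glands (-0.44, SE 0.12, adjusted p = 0.0126), the comparisons in which Socs36E was higher. The glypicans dally and dlp, which bind Unpaired ligands at the cell surface, were higher in the PP than in lglRNAi;RasV12-glands (1.02, SE 0.13, adjusted p = 1.7e-04, and 0.77, SE 0.11, adjusted p = 3.7e-04). Both were named after their values were seen.

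Genes described as targets of Stat92E in other tissues or after infection were read from a list of 21 genes, all in the tables, of which 12 passed the filter and 9 did not. Among those that failed were 6 of the 8 Turandot genes listed. Against w1118-glands, 4 were higher and 3 lower in the PP, 3 higher with 1 lower in lglRNAi;RasV12-glands, and 2 higher with 4 lower in RasV12-glands. Of all genes, 58.6%, 51.7% and 48.9% were called in these comparisons, in either direction. The median log2 fold change of the 12 was 0.44 in the PP, -6.3e-04 in lglRNAi;RasV12-glands and -0.70 in RasV12-glands, so the list had no common direction.

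The target with the largest change was Mmp1, a matrix metalloproteinase that is also induced by JNK. It had 522.5, 1141 and 584.5 CPM in the PP, 759, 327 and 441.5 CPM in whole lglRNAi;RasV12-glands and 521, 339 and 242 CPM in RasV12-glands, against 8.39, 4.42 and 7.14 CPM in w1118-glands. vir-1, a gene induced by virus infection through the pathway, had 198.5, 230.3 and 267.5 CPM in the PP, 105, 109 and 104 CPM in whole lglRNAi;RasV12-glands and 85.7, 108 and 82.9 CPM in RasV12-glands, against 33.7, 49.0 and 34.7 CPM in w1118-glands. Against lglRNAi;RasV12-glands, 2 of the 12 targets were higher in the PP, vir-1 and ImpL2, and 2 were lower, Ilp6 (log2 fold change -0.81, SE 0.15, adjusted p = 0.00157) and Tep2, a thioester protein gene (-0.96, SE 0.22, adjusted p = 0.00525). Of all genes, 20% were higher and 17.8% lower in this comparison. Tep2 was named after its values were seen. Fat body markers were also lower in this comparison (5 of 6 tested), and the part of fat body cells in the values of the targets was not tested. vir-1 was highest in the PP, where it was above lglRNAi;RasV12-glands (log2 fold change 1.13, SE 0.16, adjusted p = 3.0e-04) and above RasV12-glands (1.33, SE 0.16, adjusted p = 8.1e-05).

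ImpL2, an inhibitor of insulin signaling, was high in the PP alone. It had 38.7, 108 and 52.5 CPM in the PP, 16.9, 13.6 and 12.9 CPM in whole lglRNAi;RasV12-glands and 10.5, 11.6 and 5.66 CPM in RasV12-glands, against 12.9, 22.1 and 10.8 CPM in w1118-glands. In the PP it was higher than in w1118-glands (log2 fold change 2.12, SE 0.39, adjusted p = 6.7e-04), lglRNAi;RasV12-glands (2.20, SE 0.39, adjusted p = 0.00136) and RasV12-glands (2.84, SE 0.40, adjusted p = 2.8e-04). The insulin-like peptide gene Ilp6 went the other way, at 15.9, 11.2 and 13.9 CPM in the PP, 22.9, 26.5 and 22.0 CPM in whole lglRNAi;RasV12-glands and 22.9, 31.3 and 30.3 CPM in RasV12-glands, against 64.3, 68.4 and 60.3 CPM in w1118-glands. zfh1, a transcription factor known as a target in the testis stem cell niche, was lower than in w1118-glands in the PP (-1.77, SE 0.43, adjusted p = 0.00399) and in RasV12-glands (-2.0, SE 0.44, adjusted p = 0.00267).

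The stress peptide genes TotA and TotC differed between RasV12-glands and both lglRNAi;RasV12 groups. TotA had 127, 107 and 109 CPM in the PP, 114, 81.3 and 73.2 CPM in whole lglRNAi;RasV12-glands and 28.3, 50.3 and 23.5 CPM in RasV12-glands, against 78.8, 110.5 and 64.3 CPM in w1118-glands. Against RasV12-glands it was higher in the PP (log2 fold change 1.75, SE 0.28, adjusted p = 6.9e-04) and in lglRNAi;RasV12-glands (1.40, SE 0.28, adjusted p = 0.0096), and TotC was higher in both too (1.74, SE 0.50, adjusted p = 0.0176, and 1.82, SE 0.50, adjusted p = 0.036). chinmo, a transcription factor and another target in the testis, was higher in lglRNAi;RasV12- than in RasV12-glands as well (1.18, SE 0.29, adjusted p = 0.0218). TotC was low, at 1.31 to 2.58 CPM in the PP, 1.23 to 2.97 CPM in whole lglRNAi;RasV12-glands and 0.219 to 0.855 CPM in RasV12-glands. It had 0.610 to 1.05 CPM in w1118-glands. TotA, TotC and chinmo were named for these comparisons after their values were seen, and their calls were not read under other settings. With Stat92E and et, they are among the genes that were higher in entire lglRNAi;RasV12-glands than in RasV12-glands, while Socs36E was not called there.

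**Figure D5:**
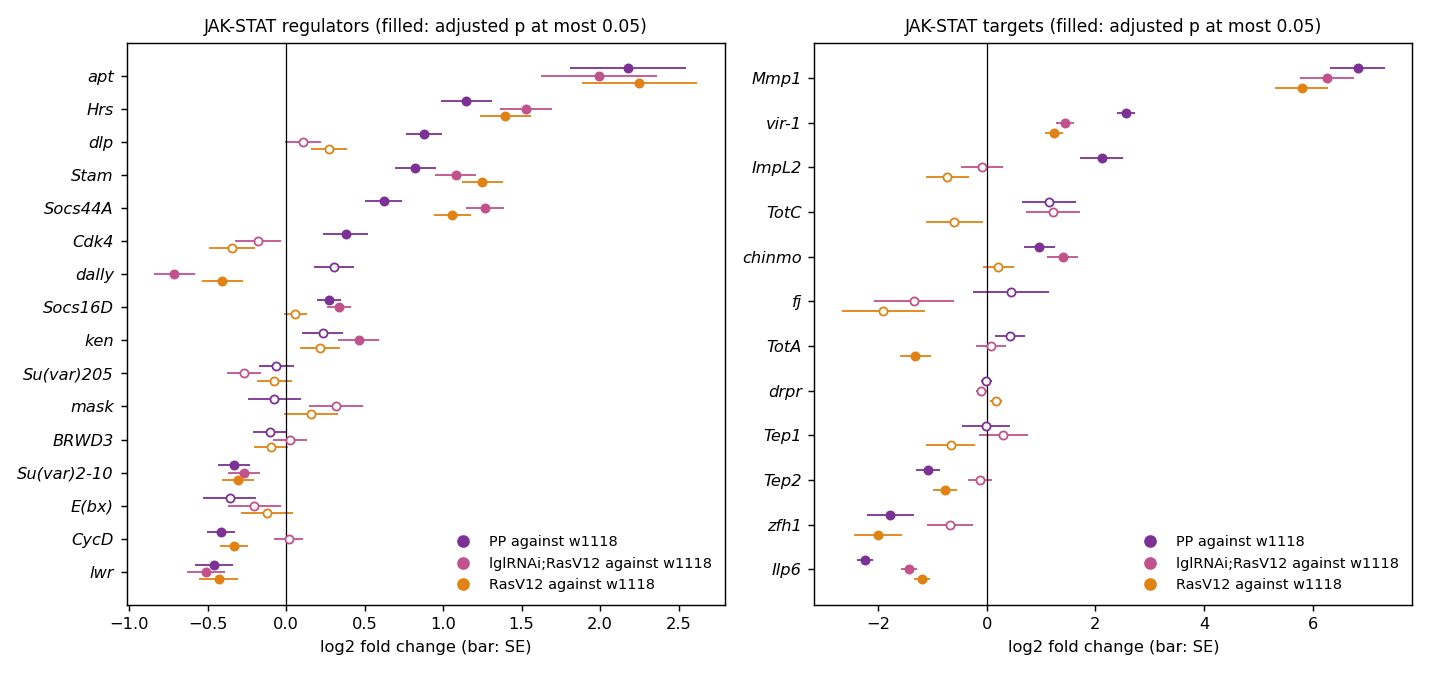
Log2 fold change against w1118-glands, with a bar of 1 SE, of the 16 regulators on the left and the 12 tested targets on the right, for the PP, lglRNAi;RasV12-glands and RasV12-glands; filled points have an adjusted p of at most 0.05. Points lie on both sides of 0 in both lists, and apt (1.99 to 2.25) and Mmp1 (5.80 to 6.83) are the farthest to the right.

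For each tested member, the genes with the most similar profile were found as those with the smallest root mean square (RMS) difference of centred log2 CPM over the 12 libraries. Those nearest to upd3 were Epac, a cAMP-activated exchange factor, aos, a feedback inhibitor of EGFR signaling, and Mmp1, with RMS differences of 0.614, 0.644 and 0.651, where upd3 itself varied by 3.05 around its mean. aos had a log2 fold change against w1118-glands of 6.54 in the PP, 6.64 in lglRNAi;RasV12-glands and 6.38 in RasV12-glands. dome was nearest to CG43367, CG13124 and Svil (0.190 to 0.218, own variation 0.636), and et to CG16704, Sardh and LManII (0.147 to 0.163, own variation 0.673). CG16704 shared the split of et, with 1.32 for lglRNAi;RasV12- against RasV12-glands and -1.17 for the PP against lglRNAi;RasV12-glands.

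The nearest profiles to hop were those of Taf4, E2f1 and Sec71 (0.0628 to 0.0697, own variation 0.269), the first a subunit of the general transcription factor TFIID and the second a cell cycle transcription factor. Stat92E was nearest to Ets97D, ast and spd-2 (0.0926 to 0.0984, own variation 0.252), Socs36E to CG4907, bab2 and CG6225 (0.272 to 0.309, own variation 1.02), and Ptp61F to Myo31DF, CG17065 and Taf6 (0.0776 to 0.104, own variation 0.330). No member was among the 3 nearest genes of another. The smallest RMS difference within the pathway was that of Stat92E and Ptp61F (0.298), but 2 flat profiles are close by themselves, and Ptp61F ranked 1710 for Stat92E. By rank, the closest were dome and Ptp61F (0.344, rank 152), and Socs36E ranked 490 for upd3 (2.38). The points of such a profile share libraries, depth and scaling, so the values are given as a description.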

How the data were processed

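RNA of 12 pools of salivary glands was poly(A)-selected and sequenced as paired-end reads without strand information. The authors pseudoaligned the reads with kallisto 0.44.0 to Drosophila transcripts (the dm6 assembly) and deposited, per transcript, estimated counts without normalization and TPM; their tests with sleuth 0.30.0 were not used. Of 30503 transcripts, 30279 matched the Ensembl 115 annotation. Estimated counts were summed per gene, rounded and TMM-normalized, and 9012 genes passing a minimum count of 10 by group were tested in R 4.3.3 with edgeR 4.0.16's quasi-likelihood test over all 12 libraries, with Benjamini-Hochberg adjustment within each of 6 comparisons and a threshold of 0.05. SE were computed from the test statistic, and 95% intervals with the t quantile of the fit. Ratios of sums of counts carry exact 95% intervals. On simulated data with known changes in RasV12- against w1118-glands, 90% of 2-fold and 100% of 4-fold changes were recovered among 8946 genes. Recovery at the spread of the members, or with the difference in composition between these libraries, was not tested.

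Named were all members, up to 5 genes per list with the largest change against w1118-glands past the threshold and 2-fold, the 3 nearest profiles per member, and the checks; exceptions are named in the text. The sources used here do not say whether the replicates came from separate crosses, so p-values measure the spread between these pools. Members and lists were chosen with earlier results of these data known. Replicate numbers come from the sample titles, and those of the PP differ from its deposited tables. Same-numbered libraries deviated together in RasV12- against w1118-glands (r of residuals 0.12 to 0.21) and in lglRNAi;RasV12- against w1118-glands (0.18 to 0.22), and not in the other comparisons. Alternatives covered scaling, DESeq2 1.42.0, limma 3.58.1 on log2(TPM + 1) and log2(TPM + 0.1), no filter, only the groups compared, the replicate number and the deposited number as terms, and leaving out each replicate. With 3 replicates a group, no exact permutation test was run, as it cannot go below 0.1.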

Additional observations from a re-analysis of the deposited data

How the results depend on the processing

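Over 42 log2 fold changes of members, 672 alternative values were computed, of which 597 kept direction and call, 41 lost the call, 9 gained it and 25 changed sign. Causes were not tested. By library size in place of TMM, the values that changed sign were Stat92E in RasV12- against w1118-glands (0.267), et (0.0969) and hop (0.0423) in lglRNAi;RasV12- against w1118-glands, and et in the PP against RasV12-glands (0.0284), and 1 member in place of 2 was called in lglRNAi;RasV12- against RasV12-glands. In log2(TPM + 1) and log2(TPM + 0.1) they were hop (0.1 and 0.106) and Stat92E (0.492 and 0.509) in RasV12- against w1118-glands, et (0.261 and 0.439) and hop (0.356 and 0.375) in lglRNAi;RasV12- against w1118-glands, and upd3 (-0.0599 and -0.0656) and Ptp61F (-0.222 and -0.229) in the PP against lglRNAi;RasV12-glands. For the PP against w1118-glands, TMM gave 3017 of 9012 genes higher and 2267 lower, library size 5149 and 1069, and log2(TPM + 1) 5368 and 879. For lglRNAi;RasV12-glands these were 2539 and 2116, 4357 and 775, and 5813 and 414, and for RasV12-glands 2325 and 2078, 4443 and 830, and 5576 and 489. The median log2 fold change of all genes moved by 0.409 to 0.465 by library size and by 0.498 to 0.745 in TPM.

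With the deposited number in the model, 1 member was called in lglRNAi;RasV12- against w1118-glands (5 without it), 0 in lglRNAi;RasV12- against RasV12-glands (2), 0 in the PP against lglRNAi;RasV12-glands (3) and 1 in the PP against RasV12-glands (2), and the signs of dome in lglRNAi;RasV12- against RasV12-glands (-0.191) and of et in the PP against RasV12-glands (0.165) turned. In these edgeR fits, 46 genes were higher and 34 lower of all genes in lglRNAi;RasV12- against RasV12-glands, and 83 and 18 in the PP against lglRNAi;RasV12-glands. They were 952 and 534 in lglRNAi;RasV12- against w1118-glands, and 535 and 273 in the PP against RasV12-glands. With only the groups compared in the fit, 1 member was called in lglRNAi;RasV12- against RasV12-glands, where 604 of 8602 genes were higher and 544 lower. With the replicate number as a block, the counts of members called stayed at 7, 5, 5, 3, 2 and 2, no call of a member changed, and upd3 in RasV12- against w1118-glands was 6.67. TMM without the 20 most abundant genes, chosen after seeing the data, changed no call of a member.

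Leaving out each replicate in turn, between 3 (without RasV12 replicate 1) and 6 members were called in RasV12- against w1118-glands, between 0 (without lglRNAi;RasV12 replicate 2 or RasV12 replicate 1) and 1 in lglRNAi;RasV12- against RasV12-glands, and between 1 (without PP replicate 2 or lglRNAi;RasV12 replicate 2 or 3) and 3 in the PP against lglRNAi;RasV12-glands. Of all genes, 2025 were higher and 1630 lower in the first comparison without RasV12 replicate 1, against 2325 and 2078 with all replicates. In the second these were 314 and 227 without lglRNAi;RasV12 replicate 2, against 647 and 460. In the third they were 1481 and 1259 without PP replicate 2, against 1804 and 1600. Log2 fold changes ranged from -0.061 to 0.189 for dome in lglRNAi;RasV12- against RasV12-glands, from -0.0988 to 0.374 for upd3 and from -0.0969 to 0.143 for Ptp61F in the PP against lglRNAi;RasV12-glands, and from -0.164 to 0.167 for et in the PP against RasV12-glands, none of them called. Depth limited upd1 and the level of upd3 in w1118-glands.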

Other observations

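Listericin, an antibacterial peptide gene described as a Stat92E target, failed the filter on low counts, but PP replicate 2 held 123 of its counts (1.63 CPM). The other PP-replicates had 5 and 4 counts, lglRNAi;RasV12-glands had 1, 0 and 0, RasV12-glands had 3, 3 and 1, and w1118-glands had 3, 7 and 1. PP replicate 2 was also the library with the highest TMM-normalized CPM of upd3, dome and Socs36E among all 12, though not with the highest TPM of upd3, and it was singled out after its values were seen.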
